A study of Mus musculus with 18 samples.

Results

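The replication-dependent histone genes are the Hist1h, Hist2h, Hist3h and Hist4h genes, which encode the histones that package newly copied DNA. Members were every gene of the deposited count table whose GENCODE M21 symbol starts with one of these 4 stems, with 3 pseudogenes left out, which gave 67 of 54838 genes: 6 H1, 18 H2A, 18 H2B, 12 H3 and 13 H4 genes. Of these, 54 had enough counts to be tested. The other 13 had at most 13 counts in any library, and 8 of them were at 0 in all libraries.

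Libraries of ribosome-depleted total RNA came from 18 samples of mouse cells, with 3 replicates in each of 6 conditions. All came from neural stem cells of the ventricular zone of C57BL/6J embryos at day 14. The first condition was proliferating neurospheres (NSPs, floating aggregates of stem cells) grown with epidermal growth factor at 20 ng/ml. The others were cells differentiated towards astrocytes in medium with 10% serum for 24 h, 72 h or 1 week without the cytokine TNF, and for 24 h or 72 h with TNF at 50 ng/ml (24 h TNF, 72 h TNF). The labels name no genetic change or transgene. The labels do not say whether the replicates came from separate embryos or cultures, and the study's methods, which describe its experiments as independent biological ones with stem cells from single brains, do not tie the sequenced libraries to them. The p-values therefore measure the spread between these samples, which may be technical.

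Histone genes of this kind are transcribed mainly in S phase, when a cell needs equal amounts of new histone and new DNA. Their mRNAs are, in the usual form, the only ones in animal cells that end in a short hairpin, the stem-loop, instead of a poly(A) tail. The stem-loop is bound by the protein SLBP, which carries the mRNA through processing and translation, and the mRNAs are degraded when DNA synthesis stops. The core histones H2A, H2B, H3 and H4 form the nucleosome, and H1 is the linker histone on the DNA between nucleosomes. Some members can also be read through to a downstream poly(A) site in cells that leave the cycle. Because the libraries were made after ribosomal depletion and not by poly(A) selection, both forms could be sequenced, and the counts do not tell them apart.

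On GRCm38 the 67 members lay in 5 blocks. Chromosome 13 held 23 of them at chr13:21715763-22043676 and 31 at chr13:23531050-23934851, all of the Hist1 cluster. Chromosome 3 held 10 Hist2 members at chr3:96219865-96270132, chromosome 11 held the pair of Hist3 members at chr11:58948920-58956830, and chromosome 6 held Hist4h4 at chr6:136801553-136804415.

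The stem-loop is shown first, because it marks these genes as a family and its form differs between the classes. A 6-base stem with a 4-base loop was searched for in the annotated transcripts after the coding sequence, and 46 of the 67 members had one, starting 24 to 61 bases after the last coding codon. The stem is in capitals, the loop in lower case, and the sequences are given 5′ to 3′ as DNA from GENCODE M21.
common form, 26 members of H1, H2A, H2B and H3: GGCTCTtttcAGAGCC
form with another loop base, 6 members of H1, H2B and H3: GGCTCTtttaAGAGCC
H4 form, 7 members: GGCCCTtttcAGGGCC
H4 form of 2 further members: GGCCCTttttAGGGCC
second H4 stem, 2 members: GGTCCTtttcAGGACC
The stem with CCC on its 5′ side and GGG on its 3′ side occurred only in H4 members among the 46 matches. Of the 21 members with no match, 15 have an annotated transcript that ends within 5 bases of the coding sequence, so such a hairpin could not be found in them.

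The transcripts also differed in how far they were annotated past the coding sequence. Among the tested members, 19 had more than 300 annotated exon bases after the last coding codon and 35 had 300 or fewer. No member lay between 233 and 379 bases, and the division at 300 was chosen after the values were seen. The 3′ ends are given below beside the changes, which differed between these sets.

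Promoters are shown for 4 members that fell by different amounts and for the 1 member that rose. Sequences are the 250 bases before the RefSeq start on GRCm38.p6, 5′ to 3′ on the strand of the gene. Capitals mark matches to 4 motifs, each searched on both strands. These were CCAAT for the CCAAT box, TATAAA for the TATA box, ATTTGCAT for the octamer known from H2B promoters, and AAACACA for an element known from H1 promoters. No motif holds another, and overlapping matches are marked together.
Hist1h1b, chr13:21780626-21780875, minus strand: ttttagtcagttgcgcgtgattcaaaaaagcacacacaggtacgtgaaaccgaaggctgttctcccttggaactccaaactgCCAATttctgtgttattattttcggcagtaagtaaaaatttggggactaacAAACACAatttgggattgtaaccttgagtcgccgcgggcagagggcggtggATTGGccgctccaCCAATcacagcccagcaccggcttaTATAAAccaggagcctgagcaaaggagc
Hist1h2bb, chr13:23746484-23746733, plus strand: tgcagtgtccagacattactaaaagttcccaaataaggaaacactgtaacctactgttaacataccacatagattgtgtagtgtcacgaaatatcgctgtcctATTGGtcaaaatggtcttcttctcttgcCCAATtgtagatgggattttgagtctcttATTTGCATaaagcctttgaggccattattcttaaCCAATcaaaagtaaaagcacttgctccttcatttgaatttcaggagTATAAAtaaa
Hist1h3b, chr13:23752095-23752344, plus strand: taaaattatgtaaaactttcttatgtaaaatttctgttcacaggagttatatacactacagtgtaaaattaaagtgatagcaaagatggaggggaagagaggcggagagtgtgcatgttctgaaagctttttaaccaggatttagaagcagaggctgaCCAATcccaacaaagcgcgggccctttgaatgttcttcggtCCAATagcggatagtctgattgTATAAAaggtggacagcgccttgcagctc
Hist1h4d, chr13:23581318-23581567, plus strand: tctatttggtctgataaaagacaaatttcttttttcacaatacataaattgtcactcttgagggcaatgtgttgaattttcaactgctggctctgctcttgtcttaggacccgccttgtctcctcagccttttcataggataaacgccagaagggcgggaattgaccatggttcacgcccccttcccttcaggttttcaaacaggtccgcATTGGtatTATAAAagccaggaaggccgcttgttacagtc
Hist2h3c2, chr3:96239128-96239377, minus strand: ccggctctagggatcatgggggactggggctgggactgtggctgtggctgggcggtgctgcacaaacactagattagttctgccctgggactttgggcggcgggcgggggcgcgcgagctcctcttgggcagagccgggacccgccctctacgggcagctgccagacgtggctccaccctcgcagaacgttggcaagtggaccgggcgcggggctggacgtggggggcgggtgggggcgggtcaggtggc
RefSeq promoters of 300 bases (250 before and 50 after the start) were found for 62 members as 63 sequences. CCAAT occurred in 85.7% of the 63 sequences and in 37.4% of all 32851 promoters of the table. It was in all sequences of the H1, H2A, H2B and H3 members and in 3 of 12 of the H4 members. TATAAA occurred in 55.6% against 13.6% of all promoters. ATTTGCAT occurred in 22.2% against 1.7%, in 7 of 18 H2A and 7 of 17 H2B sequences and in no H1, H3 or H4 sequence. AAACACA occurred in 14.3% against 7.2%, with 5 of the 6 H1 sequences holding it. The promoter printed for Hist2h3c2 differs from the other 4 in holding no TATAAA match, and its CCAAT match lies after the start, outside the printed bases.

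Levels are in CPM, the counts of a gene scaled to a common library total with edgeR's TMM factors. Total counts per library ranged from 12509693 to 22549627. Where a group is summarised, the value is the mean ± SD of 3 libraries. Changes are log2 fold changes ± SE from edgeR's quasi-likelihood test over all 20067 tested genes, and a gene is called higher or lower at an adjusted p under 0.05. Many members are nearly the same in sequence. For each member, the 75-base windows of its exons that occur in no other annotated transcript were counted, and the median share of such windows was 99.2% for H1, 75.4% for H4, 57.9% for H2B, 41.0% for H3 and 28.4% for H2A members. How reads that match several genes were counted is not stated, so the low H2A totals and the order among near-identical members are uncertain. The 5 members Hist2h2aa1, Hist2h2aa2, Hist2h2bb, Hist2h3b and Hist2h3c1 had no window of their own and were listed at 0 counts in all 18 libraries.

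The identity of the cultures was checked with marker genes. Gfap, an astrocyte marker, had a mean of 27.1 ± 13.7 CPM in NSPs. It was at 899 ± 44.6 CPM after 24 h, 2432 ± 673 after 72 h and 63.4 ± 15.9 after 1 week. At 1 week its change against NSPs was not called (1.22 ± 0.56, adjusted p = 0.0684). Of 10 tested astrocyte markers, 5 rose and 1 fell by 24 h, 3 rose and 3 fell by 72 h, and 1 rose and 5 fell by 1 week. The one that rose at 1 week was Gpld1, a maturation marker in the study, with log2 changes of 3.44 ± 0.20 at 72 h and 5.07 ± 0.21 at 1 week (adjusted p = 1.10e-10 and 2.42e-12), and those that fell included S100b (-3.07), Aldoc (-2.16) and Aldh1l1 (-1.86). The neural stem cell marker Nes was lower at 24 h (-0.83, adjusted p = 0.0202) and not called at 1 week (-0.35, adjusted p = 0.291), and of 8 such markers 3 rose and 4 fell by 24 h, while 1 rose and 4 fell by 1 week. The markers thus do not all follow the label of astrocytes, and the conditions are called here by their time. Summed over 7 markers, microglia markers were at no more than 3.95 CPM in any library. Replicate 1 of NSPs, 24 h TNF and 72 h TNF stood apart from the other two of its condition, with a chi-square per degree of freedom of 40.5 to 55.4 between it and them, against 3.71 to 11.1 between the other two and 5.07 to 28.6 within the other 3 conditions. The smooth muscle actin gene Acta2 was at 90.3 CPM in replicate 1 of 24 h TNF against 527 and 492 in the others, and at 49.2 against 186 and 202 in 72 h TNF. The main counts and medians that use these libraries are also given without them. The study reports a wide range of RNA quality without naming the libraries, and its part in these differences was not tested.

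Nearly all replication-dependent histone genes fell when NSPs were differentiated. Summed over the 67 members, the level was 4441, 4442 and 3882 CPM in the 3 NSP libraries and 593, 775 and 688 CPM at 24 h, so that 16.1% of the NSP mean was left. At 72 h the libraries were at 589, 901 and 838 CPM, or 18.2% of NSPs, and at 1 week at 749, 466 and 630 CPM, or 14.5%. No differentiated library came near the NSP range, and the 24 h, 72 h and 1 week ranges overlapped. In bulk RNA, fewer cells in S phase and less histone mRNA per cell cannot be told apart. Summed over 7 fibroblast and mural markers, the level was 4.1 to 10.6 CPM in NSPs, 403 to 496 at 24 h, 197 to 294 at 72 h and 325 to 409 at 1 week. Of the pair of them that was tested, Acta2 was higher by 6.25 on the log2 scale at 24 h and Rgs5 by 4.34, and Lum was at 0 in all libraries. Oligodendrocyte markers, 7 genes, summed to 73.1 to 131 CPM in NSPs, 121 to 136 at 24 h, 369 to 504 at 72 h and 212 to 265 at 1 week, when Mbp, Mag and Opalin were at 0, and 4 of 6 tested neuron markers were lower at 72 h and at 1 week. The part of these cell types in the lower histone mRNA was not tested.

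Of the 54 tested members, 51 were lower at 24 h than in NSPs, 50 at 72 h and 50 at 1 week. Among all tested genes 25.5% were lower at 24 h, 27.2% at 72 h and 29.1% at 1 week. No member was higher at 24 h or 72 h and 1 was higher at 1 week, where 27.2%, 28.1% and 29.6% of all tested genes were higher. DESeq2 also called no member higher at 24 h or 72 h, and the 51 members with an unadjusted p under 0.05 in each of these comparisons all had changes below 0. The median log2 change of the members was -3.14 at 24 h, -3.40 at 72 h and -4.07 at 1 week, against 0.06, 0.05 and 0.06 over all tested genes. In 51, 50 and 50 members every differentiated library lay below every NSP library, as it did in 29.6%, 29.3% and 31.7% of all tested genes. Without replicate 1 of NSPs, 51 members were lower in each of the 3 comparisons, and at 72 h 1 member, Hist2h3c2, was then higher (log2 change 0.95 ± 0.36, adjusted p = 0.0349). The medians without that library were -3.16, -3.37 and -4.11.

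**Figure D1:**
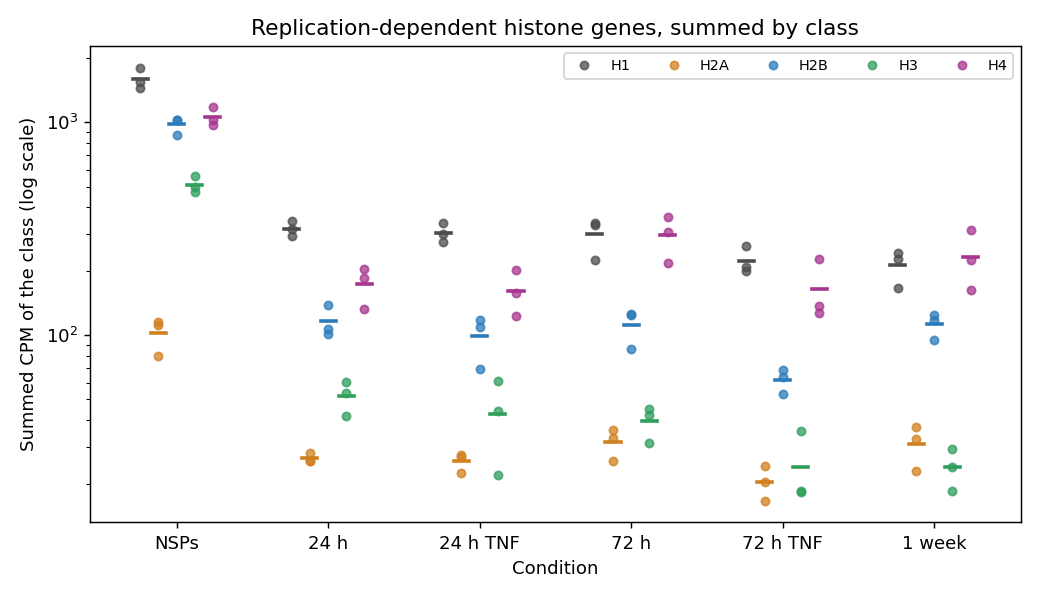
Summed CPM of the members of each histone class (log axis) in the 18 libraries, by condition; points are libraries and bars are condition means. Every class is lower in the differentiated libraries than in NSPs, and H2A and H3 are close together at 1 week (30.8 and 24.0 CPM).

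The classes did not fall to the same share. Summed H3 mRNA fell furthest, from 509 ± 45 CPM in NSPs to 51.7 ± 9.5 at 24 h, 39.6 ± 7.3 at 72 h and 24.0 ± 5.4 at 1 week, which is 4.72% of NSPs. Summed H2A mRNA, the smallest class in NSPs, kept the largest share, going from 102 ± 20 CPM to 30.8 ± 7.1 at 1 week, or 30.0%. H4 was left at 16.4% at 24 h, 27.8% at 72 h and 22.1% at 1 week, H2B at 11.9%, 11.5% and 11.5%, and H1 at 19.8%, 18.6% and 13.3%. The make-up of the summed member CPM, which is not scaled to gene length, shifted with them. H3 made up 12.0% of it in NSPs and 3.91% at 1 week, and H4 made up 24.9% and 38.1%. These sums follow the few most abundant members of each class and carry no test. Hist3h2a alone was 15.1% of the H2A sum in NSPs and 55.3% at 1 week, and without it, a choice made after the values were seen, H2A was left at 15.8% at 1 week. By the median over members H2A changed by more than H3, with -3.62 against -3.25 at 24 h and -5.06 against -4.45 at 1 week. Without replicate 1 of NSPs these medians were -3.77 and -3.22 at 24 h and -5.23 and -4.51 at 1 week, and the sums at 1 week were 27.0% for H2A and 4.68% for H3.

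**Figure D2:**
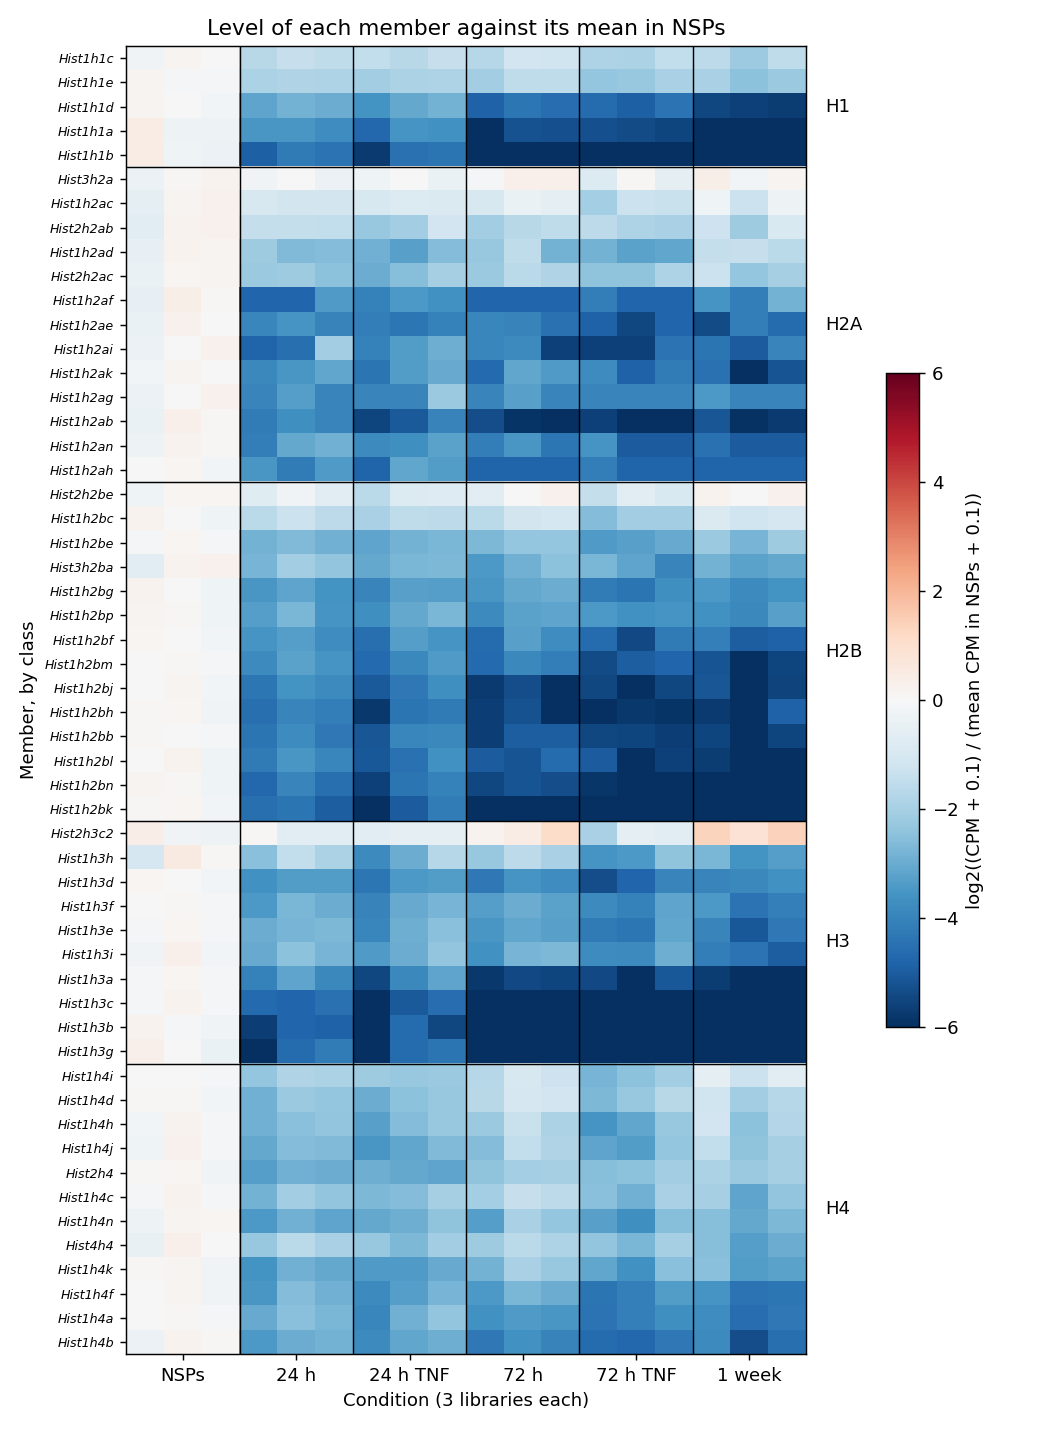
Level of the 54 tested members in each of the 18 libraries against the member's mean in NSPs, as log2 with 0.1 CPM added, grouped by class and ordered by the change at 1 week; the colour scale ends at -6 and 6. Most rows are blue from 24 h on, and Hist3h2a, Hist2h2be and Hist2h3c2 stay pale or turn red.

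Among the linker histones, 2 kept over 20% of their NSP level at 1 week and 3 were left at 2.06% or less. Hist1h1c was at 343, 449 and 408 CPM in NSPs, 126, 154 and 138 at 24 h, 122, 180 and 177 at 72 h, and 134, 87.9 and 138 at 1 week. Hist1h1e went from 415, 356 and 336 CPM in NSPs to 96.3, 66.3 and 78.3 at 1 week. At 24 h Hist1h1c was left at 34.8% and Hist1h1e at 27.6% of NSPs, and at 1 week at 29.9% and 21.8%. Hist1h1b, in contrast, was at 352, 219 and 206 CPM in NSPs, 8.62, 13.6 and 11.7 at 24 h, 2.50, 2.88 and 3.52 at 72 h, and 2.34, 1.97 and 2.04 at 1 week. Its log2 change was -4.51 ± 0.31 at 24 h (adjusted p = 2.57e-09) and -6.92 ± 0.36 at 1 week (adjusted p = 1.99e-11), against -1.52 ± 0.18 and -1.74 ± 0.19 for Hist1h1c (adjusted p = 2.20e-06 and 2.31e-07). Hist1h1a and Hist1h1d followed Hist1h1b, with 1.4% and 2.06% of the NSP level left at 1 week. Per kilobase of exon, Hist1h1b was at 348 CPM per kb in NSPs, Hist1h1a at 282, Hist1h1c at 257 and Hist1h1e at 191. This order rested on replicate 1 of NSPs: without it Hist1h1b and Hist1h1c were close, at 285 and 275 CPM per kb, and Hist1h1a was at 229. In each differentiated condition Hist1h1c was the highest, with 89.3 CPM per kb at 24 h and 76.9 at 1 week against 15.2 and 2.85 for Hist1h1b. Hist1h1e shares 25.7% of its exon bases with other genes on the same strand, Hist1h2be among them, so its count may hold reads of both. Hist1h1t, the H1 gene known from testis, had 85 counts over all 18 libraries and was not tested; together with the other testis genes Hist1h2aa and Hist1h2ba it summed to no more than 0.658 CPM in any library.

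Core histones of the H3 class showed some of the deepest losses and the only gain. Hist1h3b was at 88.9, 72.1 and 66.5 CPM in NSPs, 1.44, 2.68 and 2.53 at 24 h, 0.151, 0.429 and 0.330 at 72 h, and 0.353, 0.110 and 0.141 at 1 week. That is a log2 change of -5.08 ± 0.37 at 24 h, -7.88 ± 0.46 at 72 h and -8.41 ± 0.48 at 1 week (adjusted p = 4.62e-09, 1.02e-10 and 5.81e-11). Its NSP libraries lay far above all others, and the 24 h libraries lay above all 72 h and 1 week libraries. Hist1h3g, with 1595 counts over the NSP libraries and 3 over the 1 week libraries, was 568-fold lower at 1 week, with a 95% counting interval of 194 to 2758 (exact Clopper-Pearson, covering counting error only). Hist1h3c fell by 4.68 ± 0.35 at 24 h and by 7.55 ± 0.44 at 1 week on the log2 scale. Per kilobase of exon, the scale on which genes can be compared, the highest H3 levels in NSPs were 124 CPM per kb for Hist1h3i, 122 for Hist1h3b and 111 for Hist1h3c, differences smaller than the SD of Hist1h3i. By the mean over all 18 libraries, which ranks members that kept more after differentiation higher, they were Hist1h3i at 32.0, Hist1h3h at 25.6 and Hist1h3e at 23.7 CPM per kb, with log2 changes of -4.50 ± 0.34, -3.20 ± 0.48 and -4.40 ± 0.35 at 1 week (adjusted p = 2.16e-09, 1.75e-05 and 5.41e-09). Only 6.5% of the windows of Hist1h3h and 21.7% of those of Hist1h3i are their own.

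Hist2h3c2 was the member that rose. It was at 3.30, 2.09 and 1.93 CPM in NSPs, 2.57, 1.51 and 1.47 at 24 h, 2.88, 3.37 and 5.34 at 72 h, and 6.23, 4.49 and 6.48 at 1 week. All 3 libraries of 1 week lay above all NSP and 24 h libraries. The 72 h libraries overlapped those of NSPs and of 1 week and lay above those of 24 h. The log2 change from NSPs was -0.40 ± 0.35 at 24 h (adjusted p = 0.349), 0.68 ± 0.33 at 72 h (adjusted p = 0.0884) and 1.24 ± 0.32 at 1 week (adjusted p = 0.00308). Of its windows 37.4% are its own, and the H3 genes Hist2h3b and Hist2h3c1, which share the others with it, were listed at 0, so its counts may hold reads of these copies.

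The H2A genes were low throughout, with wide counting error. Per kilobase Hist1h2ak was the highest in NSPs at 54.6 CPM per kb, with Hist2h2ac at 24.4, and Hist3h2a was the highest in each differentiated condition, with 7.92 CPM per kb at 1 week against 1.35 for Hist1h2ak and a close 6.93 for Hist2h2ac. Hist1h2ak went from 18.9, 24.1 and 21.5 CPM in NSPs to 1.36, 1.79 and 2.36 at 24 h and to 0.883, 0.219 and 0.493 at 1 week, a log2 change of -5.26 ± 0.44 (adjusted p = 1.11e-08). Among the largest fitted H2A losses were those of genes with few counts. Hist1h2ah had 140 counts over the NSP libraries and 0 over the 72 h and over the 1 week libraries, which against a floor of 3 counts over the group is at least 43.2-fold lower at 72 h and at least 49.9-fold lower at 1 week. Hist1h2af, with 138 counts in NSPs, was at 0 at 72 h, at least 42.6-fold lower, and had 2 counts at 24 h, a ratio of 58.1 with a counting interval of 15.8 to 484. Hist1h2ag had 76 counts in NSPs and 1 at 24 h, a ratio of 64.0 with a counting interval of 11.1 to 2560. With the genes at 0 set to these bounds, the H2A medians were the same, -4.38 at 72 h and -5.06 at 1 week.

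A pair of genes outside the Hist1 cluster, Hist3h2a and Hist2h2be, was not called against NSPs at any time. Hist3h2a, an H2A gene, was at 12.0, 16.3 and 18 CPM in NSPs, 13.5, 15.4 and 12.1 at 24 h, 14.9, 19.0 and 19.2 at 72 h, and 19.6, 13.9 and 17.5 at 1 week. Hist2h2be, an H2B gene, was at 13.6, 17.6 and 17.9 CPM in NSPs, 9.82, 14.3 and 10.1 at 24 h, 10.7, 16.2 and 19.8 at 72 h, and 19.2, 16.5 and 19.9 at 1 week. All these ranges overlapped for Hist3h2a, and for Hist2h2be all but those of 24 h and 1 week. At 1 week the log2 change was 0.14 ± 0.22 for Hist3h2a, with a 95% interval of -0.28 to 0.56 (adjusted p = 0.596), and 0.18 ± 0.25 for Hist2h2be, with an interval of -0.31 to 0.67 (adjusted p = 0.562). The promoter of Hist3h2a holds ATTTGCAT and CCAAT but no TATAAA, and 33.0% of its exon bases overlap Trim17 on the same strand, so reads of both may be counted together.

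The other tested Hist2, Hist3 and Hist4 members, apart from Hist2h3c2, fell. Hist2h4 (H4) was at 24.1% of its NSP level at 1 week, Hist2h2ac (H2A) at 28.3%, Hist2h2ab (H2A) at 37.4%, Hist3h2ba (H2B) at 11.3% and Hist4h4 (H4) at 13.1%. Their log2 changes at 1 week ranged from -3.13 ± 0.33 for Hist3h2ba (adjusted p = 2.29e-07) to -1.43 ± 0.34 for Hist2h2ab (adjusted p = 0.0015), which overlaps the antisense gene Gm15444 over 68.2% of its exon. The strand setting of the counting is not stated, so reads of both cannot be told apart. By position, the median log2 change of the tested members at 1 week was -5.42 for 18 members of the first chromosome 13 block, -4.13 for 28 of the second, and -1.43 for 5 on chromosome 3.

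Among the H2B genes the size of the loss differed widely. Hist1h2bb, the highest per kilobase in NSPs at 373 CPM per kb, was at 202, 192 and 176 CPM in NSPs, 8.99, 13.8 and 9.53 at 24 h and 4.06, 2.03 and 4.01 at 1 week, a log2 change of -5.81 ± 0.32 (adjusted p = 4.51e-11). Hist1h2bn, at 292 CPM per kb in NSPs, fell by 6.35 ± 0.32 on the log2 scale at 1 week (adjusted p = 1.58e-11). Hist1h2bc, the highest in each differentiated condition with 34.6 CPM per kb at 24 h and 48.2 at 1 week, was at 128, 115 and 92.1 CPM in NSPs, 36.1, 46.4 and 37.6 at 24 h, 36.7, 52.4 and 52.9 at 72 h, and 62.2, 49.3 and 55.8 at 1 week. Its 1 week level was 49.9% of NSPs, with a log2 change of -1.0 ± 0.18 (adjusted p = 9.08e-05). Hist1h2bc thus made up a larger part of the summed H2B CPM at 1 week (49.5%) than in NSPs (11.4%).

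All 12 tested H4 genes were lower than in NSPs at each time, by less than the other core classes: the median log2 change was -2.76 at 24 h, -2.02 at 72 h and -2.61 at 1 week. Hist1h4h, at 293 CPM per kb in NSPs, 49.2 at 24 h and 85.6 at 72 h, was at 121, 159 and 132 CPM in NSPs, 18.4, 24.4 and 26.6 at 24 h, 29.1, 54.4 and 37.2 at 72 h, and 61.2, 24.9 and 40.1 at 1 week. Hist1h4d, at 243 CPM per kb in NSPs, 44.2 at 24 h and 102 at 72 h, went from 291, 294 and 244 CPM to 37.4, 58.8 and 54.7 at 24 h and back to 88.1, 136 and 125 at 72 h. Hist1h4k, with a mean of 78.1 CPM per kb over all libraries, was left at 12.6% at 1 week. Hist1h4i kept the most, 58.0% at 1 week, a log2 change of -0.78 ± 0.21 (adjusted p = 0.00431).

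The size of the loss went with the annotated 3′ end. At 1 week the median log2 change was -2.05 over the 19 tested members with more than 300 annotated bases after the coding sequence and -5.14 over the 35 with 300 or fewer. At 24 h these medians were -2.40 and -3.56, and at 72 h -1.68 and -4.38. Without replicate 1 of NSPs they were -2.03 and -5.29 at 1 week. Over the 54 members Spearman's rho between the number of annotated bases and the log2 change was 0.50 at 24 h, 0.50 at 72 h and 0.52 at 1 week, a description over genes that share libraries and, in part, sequence. The 4 members that were not called lower in at least 1 of the 3 comparisons, Hist3h2a, Hist2h2be, Hist2h3c2 and Hist1h2ac, all had long 3′ ends. Exceptions were Hist1h1d and Hist1h2bh, with 4934 and 1261 annotated bases, which fell by 5.60 ± 0.21 and 5.78 ± 0.42 on the log2 scale at 1 week, and on the other side Hist2h2ab, with 3 bases and -1.43. The share of own windows went with the change less, with a rho of 0.30 at 1 week. A list of 13 histone genes described with polyadenylated transcripts, 11 of them tested, had a median of -1.74 at 1 week, with 8 lower, 0 higher and 3 not called. Whether the counted reads came from polyadenylated or stem-loop mRNA was not tested.

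**Figure D3:**
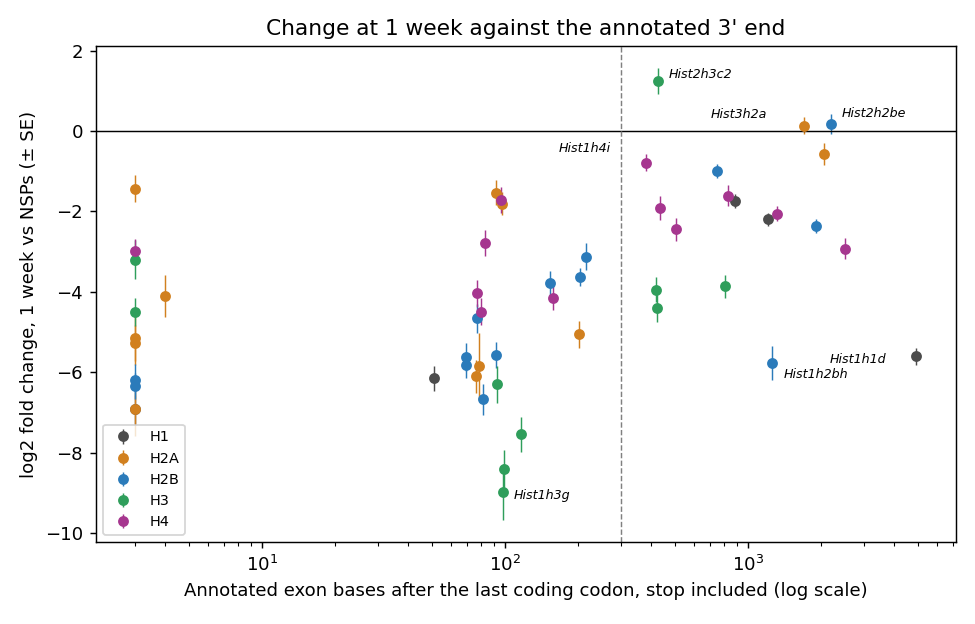
Log2 fold change at 1 week against NSPs (± SE) for 53 of the 54 tested members, against the annotated exon bases after the last coding codon (log axis), coloured by class; the member at 0 counts at 1 week, Hist1h2ah, is left out and the dashed line is at 300 bases. Members to the right of the line lie higher than most to the left, apart from Hist1h1d and Hist1h2bh.

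Genes that act in S phase fell alongside. All 23 tested genes of an S-phase list were lower at 24 h, 72 h and 1 week, with median log2 changes of -2.69, -2.90 and -3.32. Their summed level ranged from 1517 to 3555 CPM over the NSP libraries, and without replicate 1 of NSPs all 23 were still lower, with medians of -2.19, -2.43 and -2.76. The largest losses at 24 h were those of Rrm2, a subunit of ribonucleotide reductase (-4.0 ± 0.39, adjusted p = 1.47e-07), the licensing factor Cdt1 (-3.99 ± 0.38, adjusted p = 1.46e-07) and the helicase subunit Mcm5 (-3.73 ± 0.41, adjusted p = 7.54e-07), which without that library were -3.34, -3.60 and -3.21. A list of genes for histone mRNA supply also held cell-cycle genes such as Ccne1 and Cdc25a and mRNA decay genes such as Upf1. Of its 24 tested genes, 16 were lower at 24 h and none higher, with a median of -0.68 (14 and -0.62 without replicate 1 of NSPs). The cyclin Ccne1, which drives entry into S phase, fell by 2.63 ± 0.40, Cdc25a by 1.81 ± 0.20 and Lsm11, a subunit of the U7 particle that cuts histone pre-mRNA, by 1.75 ± 0.18 on the log2 scale. Slbp, named here outside the rule for its role, went from 64.9 ± 20.5 CPM in NSPs to 25.5 ± 3.7 at 24 h and 25.1 ± 3.9 at 1 week, and Npat, the activator of histone gene transcription, from 79.2 ± 1.5 to 78.3 ± 5.7 and 87.7 ± 6.2.

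Histone chaperones, which carry histones to DNA, fell in 16 of 20 tested genes at 24 h and 17 at 1 week, none rising. The subunits of chromatin assembly factor 1, which deposits new H3 and H4 behind the fork, were among the largest, with -3.73 ± 0.33 for Chaf1b and -2.80 ± 0.30 for Chaf1a at 24 h, beside -2.97 ± 0.36 for the H3 and H4 chaperone Asf1b. Without replicate 1 of NSPs, 14 were lower at 24 h and 15 at 1 week, and the change of Chaf1b at 24 h was -3.12. Replacement variants, most of which are also made outside S phase, formed the last list. Of 11 tested, 8 were lower at 24 h and 9 at 1 week, with medians of -0.76 and -1.15. The centromeric H3 gene Cenpa fell furthest, by 4.12 ± 0.24 on the log2 scale at 24 h, followed by H2afx with -2.78 ± 0.20 and H2afz with -1.74 ± 0.18. H1f0, the linker variant known from cells that have left the cycle, was lower at 24 h (-0.62 ± 0.17, adjusted p = 0.00501) and was the variant that was higher at 1 week (0.72 ± 0.17, adjusted p = 0.00125). The H3.3 gene H3f3b had log2 changes of -0.34 ± 0.14 at 24 h and -1.15 ± 0.14 at 1 week.

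From 24 h to 72 h the members divided: 14 were lower and 6 higher, where 12.6% of all tested genes were lower and 12.2% higher. By class, 3 of 5 H1, 6 of 14 H2B, 4 of 10 H3 and 1 of 13 H2A members were lower and none of the 12 H4 members. The 6 higher members were 5 H4 genes and Hist2h3c2. The median change over all 54 members was -0.25, with 0.75 for H4 and between -1.59 and -0.31 for the other classes, and over all genes -0.01.

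The largest further losses called were in the H3 class. Hist1h3g had a log2 change of -2.99 ± 0.81 (adjusted p = 0.0104), Hist1h3c of -2.90 ± 0.49 (adjusted p = 2.59e-04) and Hist1h3b of -2.80 ± 0.53 (adjusted p = 6.81e-04). Hist1h3c was at 2.65, 2.52 and 3.02 CPM at 24 h and at 0.303, 0.429 and 0.330 at 72 h, with a wide gap between the groups. Hist1h1a and Hist1h1b fell by 1.93 ± 0.28 and 1.92 ± 0.33 on the log2 scale.

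Hist1h4d rose the most of the 6, with 37.4, 58.8 and 54.7 CPM at 24 h against 88.1, 136 and 125 at 72 h and no overlap (log2 change 1.21 ± 0.27, adjusted p = 0.00236). Hist2h4 went from 4.38, 5.93 and 5.54 to 8.10, 10.8 and 10.9 CPM, also without overlap (0.91 ± 0.19, adjusted p = 0.00127). Hist2h3c2 had a change of 1.08 ± 0.34 (adjusted p = 0.0267), Hist1h4j of 0.87 ± 0.31 (adjusted p = 0.0456), Hist1h4k of 0.86 ± 0.28 (adjusted p = 0.0328) and Hist1h4i of 0.72 ± 0.23 (adjusted p = 0.0257). The count of 6 was 3 without replicate 1 or replicate 3 of 24 h, 3 without replicate 2 of 72 h and 2 without replicate 3 of 72 h. Of the 6, 2 had a log2 change of at least 1. Of the 24 genes for histone mRNA supply, 3 were higher and 1 lower, where 12.2% of all tested genes were higher and 12.6% lower. Coil, the gene of coilin, a protein of nuclear bodies, rose by 1.19 ± 0.17 (adjusted p = 4.18e-05). Sympk, a scaffold of the cleavage complex, rose by 0.58 ± 0.13 (adjusted p = 0.00328). Casp8ap2, a partner of Npat in histone gene transcription, rose by 0.52 ± 0.14 (adjusted p = 0.0124), while Ccne1 fell by 1.69 ± 0.48. Of 23 S-phase genes, 2 were lower, Cdc6 (-1.92 ± 0.53) and Mcm5 (-1.25 ± 0.42), and none was higher, and of 20 chaperones 3 were lower and none higher. None of these list counts lay far above the shares of all tested genes.

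**Figure D4:**
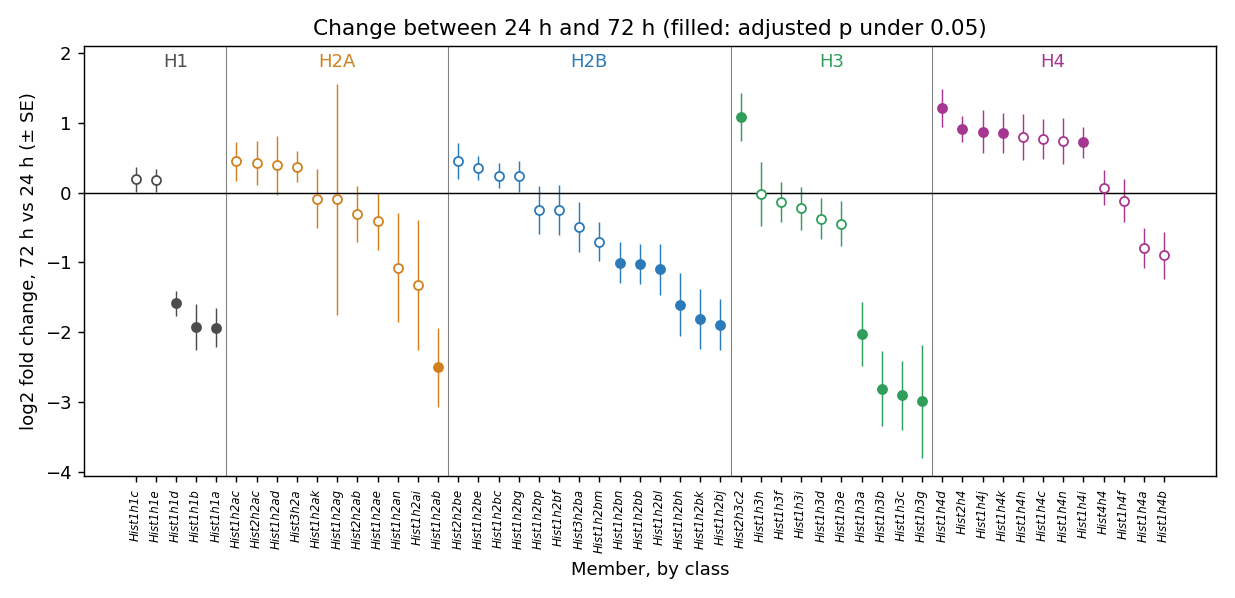
Log2 fold change between 24 h and 72 h (± SE) for 52 of the 54 tested members, grouped and coloured by class and ordered within the class; filled points have an adjusted p under 0.05, and Hist1h2af and Hist1h2ah, at 0 counts at 72 h, are left out. The filled points above 0 are 5 H4 genes and Hist2h3c2.

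Between 72 h and 1 week few members changed: 5 were lower and none higher, where 3.96% of all tested genes were lower and 2.68% higher. DESeq2 called 10 lower and none higher, and 20 of the 54 members had an unadjusted p under 0.05 in either direction. The 5 were Hist1h2ak (-1.63 ± 0.48, adjusted p = 0.0472), Hist1h3i (-1.52 ± 0.33, adjusted p = 0.00799), Hist1h2bm (-1.38 ± 0.31, adjusted p = 0.00927), Hist4h4 (-1.07 ± 0.26, adjusted p = 0.0168) and Hist1h1d (-1.03 ± 0.19, adjusted p = 0.00228), the last 2 of which have long annotated 3′ ends. Hist1h3i went from 4.09, 7.30 and 7.81 CPM at 72 h to 2.78, 2.30 and 1.55 at 1 week and Hist4h4 from 8.93, 12.8 and 10.6 to 6.58, 3.84 and 4.93, both without overlap. The count was 2 without replicate 2 of 72 h, 2 without replicate 2 of 1 week and 3 without replicate 3 of 1 week. Summed over 10 genes, astrocyte markers were at 6254 to 8763 CPM at 72 h and 3416 to 3931 CPM at 1 week, although Gpld1 rose (1.63 ± 0.18, adjusted p = 2.05e-05). The part of cell types in the lower members was not tested.

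TNF made no detectable difference to the members at 24 h. None of the 54 was higher or lower, where 2.18% of all tested genes were higher and 1.32% lower, and the same was found by DESeq2 and without replicate 1 of 24 h TNF. No member had an unadjusted p under 0.05. Of the 54 changes 45 were below 0, with a median of -0.19, which was 0.01 without replicate 1 of 24 h TNF. The summed level of the 67 members was 512, 636 and 746 CPM with TNF against 593, 775 and 688 without. These ranges overlap.

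At 72 h, 10 of the 54 members were lower with TNF and none was higher, where 5.21% of all tested genes were lower and 4.35% higher. DESeq2 called 12 lower and none higher, and 50 of the 54 changes were below 0. The summed level was 426, 444 and 615 CPM with TNF against 589, 901 and 838 without, so that 1 library with TNF lay above the lowest without it. The median log2 change over the members was -0.66, with -0.10 for H1, -0.59 for H3, -0.70 for H2A, -0.73 for H2B and -0.75 for H4, against -0.01 over all genes.

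Hist2h3c2, Hist1h4i and Hist1h4h had the largest changes among the 10. Hist2h3c2 was at 0.564, 1.57 and 1.5 CPM with TNF and 2.88, 3.37 and 5.34 without, a log2 change of -1.68 ± 0.35 (adjusted p = 0.00394). Hist1h4i was at 4.51, 5.69 and 7.26 CPM against 9.46, 15.9 and 13 (-1.14 ± 0.23, adjusted p = 0.00287). Hist1h4h was at 11.9, 15.8 and 28.0 CPM against 29.1, 54.4 and 37.2 (-1.12 ± 0.33, adjusted p = 0.0388), and for this gene the highest library with TNF lay just below the lowest without it. Hist1h2bc was lower by 1.01 ± 0.18 (adjusted p = 0.00119), with 18.4, 26.4 and 26.0 CPM against 36.7, 52.4 and 52.9. Hist1h4j (-0.99 ± 0.31), Hist2h2be (-0.90 ± 0.26) and Hist1h4d (-0.90 ± 0.26) were also lower, as were Hist1h2ac (-0.92 ± 0.29), Hist1h2bg (-0.90 ± 0.22) and Hist1h2be (-0.78 ± 0.18), which were named after their values were seen.

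At 72 h without TNF the 10 had been left at 11 to 158% of their NSP level. Of them 8 were among the 19 with long annotated 3′ ends and 2 among the 35 others, while the median log2 changes of both groups were close, -0.78 and -0.64. Members with low levels had wide errors: the change of Hist1h3b was -0.29 ± 0.75, with an interval of -1.76 to 1.18. A difference was not detectable at this depth for Hist1h1b (-0.07 ± 0.36) or Hist1h1a (0.10 ± 0.29). None of the 23 S-phase genes was called by edgeR and 2 had an unadjusted p under 0.05, with a median change of -0.17. Of the 24 genes for histone mRNA supply 3 were lower and none higher, where 5.21% of all tested genes were lower and 4.35% higher. The 3 were Coil (-1.16 ± 0.17, adjusted p = 1.37e-04), Sympk (-0.61 ± 0.13, adjusted p = 0.00612) and Cstf2 (-0.49 ± 0.14, adjusted p = 0.0305). Of the replacement variants H3f3a was lower (-0.64 ± 0.16, adjusted p = 0.0162).

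The 10 calls depended on single libraries: without replicate 1 of 72 h TNF 5 members were lower, with Hist1h4h, Hist1h4d, Hist1h4j, Hist2h2be and Hist1h2ac no longer called and the median of the 54 at -0.66, without its replicate 2 there were 6, and without replicate 2 or replicate 3 of 72 h there were 4. Fitted on the 72 h and 72 h TNF libraries alone, the count was also 4. Astrocyte markers moved in the same comparison. Summed over 10 genes they were at 3987 to 5351 CPM with TNF and 6254 to 8763 CPM without, with 4 of the 10 lower and none at 0 counts, and fibroblast and mural markers, of which Acta2 was nearly all, were at 54.0 to 204 CPM against 197 to 294 CPM, with Lum at 0 in both. Summed over 7 genes, oligodendrocyte markers were at 199 to 253 CPM with TNF and 369 to 504 CPM without, with Opalin at 0 in both and 1 of 4 tested genes lower, Cnp (-1.04 ± 0.20, adjusted p = 0.00214). Of 3 tested endothelial markers Kdr was lower (-2.27 ± 0.46, adjusted p = 0.00318), with 5 genes summing to 1.8 to 3.07 against 5.68 to 6.87 CPM and Cdh5 at 0, and of 6 tested neuron markers Rbfox3 was lower (-1.86 ± 0.45, adjusted p = 0.0124), with 7 genes at 1469 to 1656 against 1574 to 1627 CPM. The part of these cell types in the lower histone mRNA was not tested.

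**Figure D5:**
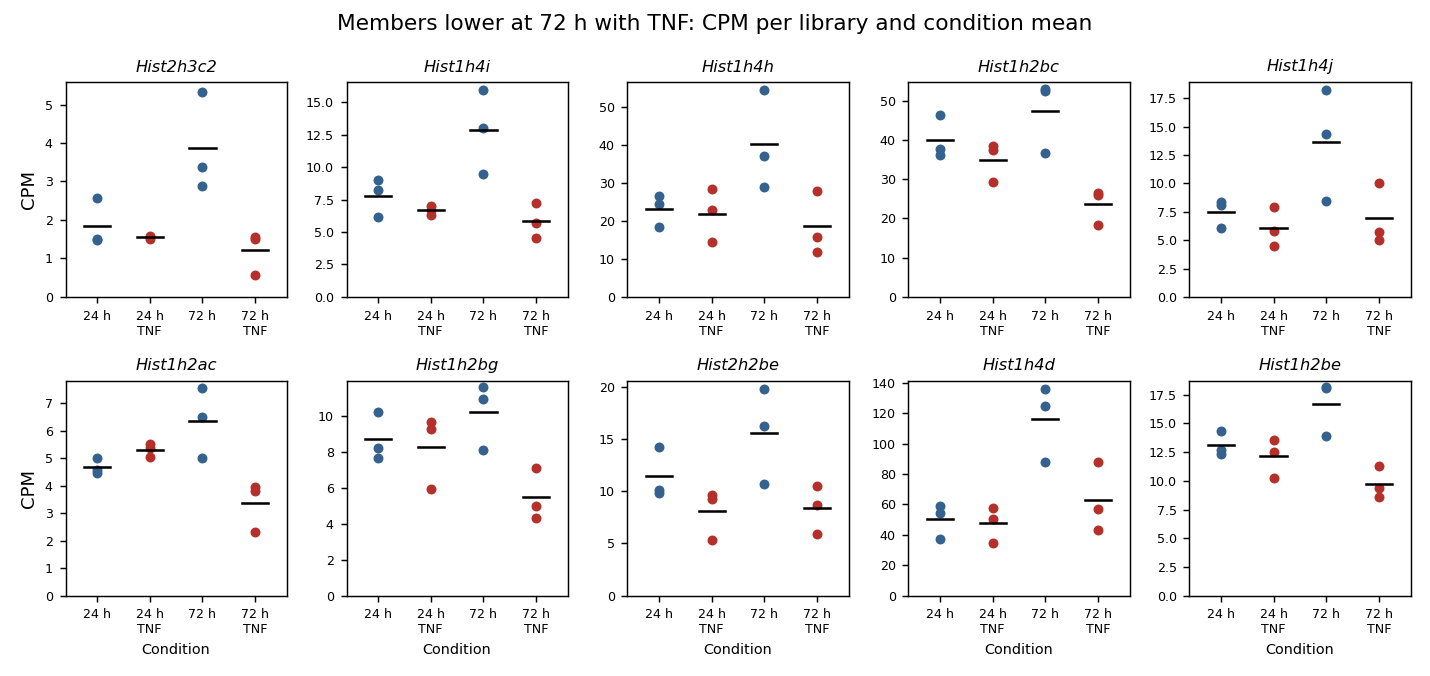
CPM per library (points; blue without TNF, red with TNF) and condition mean (bars) of the 10 members lower at 72 h with TNF, at 24 h and 72 h, each axis starting at 0. At 24 h the colours overlap in most of the panels, and at 72 h the red points lie low, with overlap in Hist1h4j and Hist1h4d.

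The TNF effect at 72 h was then tested against that at 24 h. No member passed this interaction test in either direction, with or without replicate 1 of 24 h TNF or 72 h TNF, where 0.135% of all tested genes were higher and 0.324% lower; DESeq2 called none either, and 9 of the 54 members had an unadjusted p under 0.05. The effects at the 2 times are therefore not shown to differ for any member, although the median difference was -0.44. Of the histone mRNA supply list Coil was lower by this test (-1.15 ± 0.24, adjusted p = 0.0377).

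With TNF, 19 members were lower at 72 h than at 24 h and 1 was higher, where 7.93% of all tested genes were lower and 5.38% higher. Among the called members the largest losses were those of Hist1h3g (-3.44 ± 0.88, adjusted p = 0.014), Hist1h3c (-3.43 ± 0.59, adjusted p = 9.03e-04) and Hist1h3b (-2.66 ± 0.56, adjusted p = 0.00421). By class 3 of 5 H1, 8 of 14 H2B, 5 of 10 H3, 2 of 12 H4 and 1 of 13 H2A members were lower. Hist2h4 was the member that was higher, from 5.67, 5.07 and 4.84 CPM to 7.44, 7.83 and 10.4 CPM without overlap (0.72 ± 0.19, adjusted p = 0.0149). Hist1h4d, which had risen without TNF, had a change of 0.39 ± 0.26 with an interval of -0.12 to 0.91 (adjusted p = 0.37). The comparison shares no library with that of 72 h against 24 h without TNF. The count of lower members was 23 without replicate 1 of 24 h TNF, 8 without its replicate 2 and 7 without its replicate 3, and 14 without replicate 1 and 10 without replicate 2 of 72 h TNF, and it was 2 when only these 2 conditions were fitted. Hist2h4 was not called without replicate 3 of either condition. With the replicate block Hist1h2ab was no longer called (adjusted p = 0.0648).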

How the data were processed

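The deposited table holds raw read counts per gene, which per the labels and the methods of the authors came from paired reads run through FastQC, Trim Galore, STAR, SAMtools and featureCounts on mm10. Versions, the strand setting and the treatment of reads that match several genes are not given in the sources used here. The authors' own tests used DESeq2. Here the counts of all 18 libraries (12509693 to 22549627 in total) were fitted with edgeR 4.0.16 in R 4.3.3 (quasi-likelihood test, 1 mean per condition, TMM scaling, filterByExpr), 9 comparisons were tested, and p-values were adjusted by Benjamini-Hochberg over 20067 genes at 0.05. The SE is the log2 fold change over the square root of F, and intervals are 95%. Counting intervals cover counting error only, because the reads carry no molecular identifiers and copies of 1 molecule may be counted more than once.

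The members, gene lists and tests were chosen with earlier results of these data known. Named members are the 3 of each class with the highest mean CPM per kb over all libraries, the 3 with the largest called change in each direction of each comparison, those called against the majority, and the tested Hist2, Hist3 and Hist4 members; genes of the lists were named by the same rule on called changes; other members named were chosen after their values were seen. On simulated counts for 24 h against NSPs over 20067 genes, edgeR recovered 81 of 100 changes of log2 1 and 100 of 100 of log2 2, with 10 false among 191 calls. The changes were placed only in genes above a minimum mean count, and all genes had the same spread. The simulation therefore does not give the recovery for members with few counts or a wider spread. Alternatives were DESeq2 1.42.0, other scaling and filtering, only the compared conditions, a minimum change of log2 1, a replicate block and leaving out each library. Replicate numbers were taken to pair samples only for 72 h TNF against 24 h TNF, where deviations from the condition means correlated at 0.291, 0.255 and 0.266. The replicate 3 column of 72 h carries the number 4. No column of the table was left unused.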

Additional observations from a re-analysis of the deposited data

How the results depend on the processing

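The counts against NSPs held under the alternatives run: 51 to 52 members were lower at 24 h, 50 to 51 at 72 h and 50 to 51 at 1 week when single libraries were left out, with 0 to 1 higher at 72 h. The smaller counts moved. For 72 h against 24 h, 6 higher members became 2 with a minimum log2 change of 1, 2 with a replicate block leaving replicate 3 of 72 h unpaired, and 2 to 9 when single libraries were left out (lower 10 to 14). For 1 week against 72 h, 5 lower became 10 with DESeq2, 16 without a filter (with 1 higher), 3 with that block, 9 with only these conditions and 2 to 7 by library. For 72 h TNF against 72 h, 10 lower became 19 without a filter, 3 with that block, 4 with only these conditions, 4 with the minimum change and 4 to 15 by library. For 72 h TNF against 24 h TNF, 1 higher became 0 with only these conditions or the minimum change and 0 to 1 by library, and 19 lower became 2 with only these conditions and 7 to 23 by library. For the interaction, 0 lower became 3 without a filter. No member reversed. The causes were not tested. The replicate block with all numbers paired gave 52 lower at 24 h, 6 higher and 14 lower for 72 h against 24 h, 4 lower for 1 week against 72 h, 9 lower for 72 h TNF against 72 h and 1 higher and 18 lower for 72 h TNF against 24 h TNF. Depth limits members with few counts, chiefly H2A.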
